A study of Mus musculus with 14 samples.

Results

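The levels of 8 genes that code for hepatocyte transcription factors and hormone receptors were described in mouse liver: Hnf4a, Cebpa, Nr5a2, Nr1h3, Rxra, Esr1, Thrb and Creb3l3. They were taken by name, and all 8 were among the 13131 genes tested, of 24983 genes with a count in at least 1 library. The livers came from recipient mice on a high-fat diet, and the study asked how a graft of brown fat cells changes metabolism. In the transplant group (6 libraries, titled iBAT 2x) the recipients carried a silk scaffold seeded with differentiated pre-adipocytes, cells taken from the stromal fraction of BAT (brown adipose tissue). In the control group (8 libraries, titled Sham-WT) the scaffold was empty. The labels name no strain, sex, age, graft site or time since surgery, nor what 2x stands for. They also do not say whether each library is from its own animal, and the p-values then measure only how these samples vary.

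HNF4A is a nuclear receptor that holds hepatocytes in their differentiated state, and C/EBPα is a leucine zipper factor that serves the same cells in glucose, urea and lipid metabolism. The other nuclear receptors carry hormonal or metabolic signals to the genome: NR5A2 (LRH-1) acts in bile acid and cholesterol metabolism, LXRα (Nr1h3) senses oxysterols, RXRα (Rxra) is the shared partner of LXR, FXR, PPAR and the thyroid hormone receptor, ERα (Esr1) binds estrogen and TRβ (Thrb) binds thyroid hormone. CREB3L3 (CREB-H) is a membrane-held factor of the hepatocyte endoplasmic reticulum that is released by cleavage and acts on triglyceride and fasting genes.

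Promoter stretches are shown for the genes whose start sites or values the results return to. Each one lies upstream of the gene's start in RefSeq, build GRCm38.p6, reads 5′ to 3′ on the gene's strand, and ends before the most upstream annotated start of a coding transcript in the stretch. Capitals mark matches, on either strand, to 4 motifs that were searched: AGGTCA (the core element of many nuclear receptors), CAAAGTCC (HNF4), CAAGGTCA (NR5A2, which contains AGGTCA) and TTGCNNAA (C/EBP).
Hnf4a upstream start (P2), chr2:163506607-163506807, plus strand: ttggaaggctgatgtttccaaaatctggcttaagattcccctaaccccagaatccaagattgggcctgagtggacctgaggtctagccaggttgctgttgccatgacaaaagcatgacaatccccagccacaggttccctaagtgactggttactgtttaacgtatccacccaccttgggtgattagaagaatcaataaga
Hnf4a liver start (P1), chr2:163546905-163547154, plus strand: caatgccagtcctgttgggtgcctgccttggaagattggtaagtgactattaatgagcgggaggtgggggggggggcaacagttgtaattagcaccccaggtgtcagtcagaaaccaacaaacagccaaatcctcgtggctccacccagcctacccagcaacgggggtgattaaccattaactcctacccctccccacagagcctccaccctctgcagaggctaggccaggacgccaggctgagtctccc
Nr5a2, chr1:136960449-136960698, minus strand: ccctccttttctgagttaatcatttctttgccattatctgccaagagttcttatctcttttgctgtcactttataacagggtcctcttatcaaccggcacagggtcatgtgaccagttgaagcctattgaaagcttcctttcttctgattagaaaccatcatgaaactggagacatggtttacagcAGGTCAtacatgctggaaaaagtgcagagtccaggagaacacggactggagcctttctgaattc
Nr1h3, chr2:91195152-91195366, minus strand: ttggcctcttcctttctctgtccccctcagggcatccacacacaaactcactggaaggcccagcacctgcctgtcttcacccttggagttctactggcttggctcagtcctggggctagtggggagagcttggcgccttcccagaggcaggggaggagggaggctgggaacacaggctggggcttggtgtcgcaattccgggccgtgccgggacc
Esr1, chr10:4611739-4611988, plus strand: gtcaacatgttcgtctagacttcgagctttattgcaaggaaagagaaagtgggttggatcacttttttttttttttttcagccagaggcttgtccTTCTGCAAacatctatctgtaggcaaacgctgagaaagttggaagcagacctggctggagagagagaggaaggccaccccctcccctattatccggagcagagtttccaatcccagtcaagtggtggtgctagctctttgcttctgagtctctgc
Thrb upstream start, chr14:17660710-17660895, plus strand: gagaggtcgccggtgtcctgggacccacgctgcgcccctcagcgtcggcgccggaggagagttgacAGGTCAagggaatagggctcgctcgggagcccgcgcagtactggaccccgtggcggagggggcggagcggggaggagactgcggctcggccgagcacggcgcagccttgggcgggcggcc
Thrb downstream start, chr14:17981394-17981528, plus strand: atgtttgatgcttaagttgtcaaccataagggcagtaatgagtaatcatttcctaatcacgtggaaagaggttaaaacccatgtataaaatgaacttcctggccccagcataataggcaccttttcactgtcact
Creb3l3, chr10:81098875-81099122, minus strand: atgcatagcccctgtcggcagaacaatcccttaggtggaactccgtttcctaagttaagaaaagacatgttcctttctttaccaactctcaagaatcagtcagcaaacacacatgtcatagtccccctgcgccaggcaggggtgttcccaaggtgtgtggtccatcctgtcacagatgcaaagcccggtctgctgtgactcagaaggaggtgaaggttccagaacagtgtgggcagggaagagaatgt
The Nr5a2 promoter held 1 AGGTCA. Among 32851 RefSeq promoters, 14.02% of 250-base stretches held AGGTCA. The Esr1 stretch held 1 C/EBP match, a motif found in 9.56% of stretches of 250 bases. The upstream Thrb stretch held 1 AGGTCA, which 10.6% of stretches of 186 bases held. No searched motif occurred in the other stretches shown.

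Levels between genes were compared as TPM, a per-length unit that the authors deposited, here summed over each gene's transcripts. Cebpa was highest at 161 ± 43.9 TPM (mean ± SD, n = 14), followed by Creb3l3 at 141 ± 47.6. Cebpa exceeded Creb3l3 in 12 of 14 libraries. Hnf4a had 95.7 ± 39.3 TPM, below Creb3l3 in all 14 libraries. The partner receptor Rxra had 70.4 ± 32.6 TPM and Nr1h3 61.7 ± 12.5 TPM, and these neighbours were not separated, since Rxra was the higher in only 8 of 14 libraries. The last 3 places were taken by Nr5a2 at 11.9 ± 5.28 TPM, Thrb at 5.50 ± 2.80 TPM and Esr1 at 1.71 ± 0.896 TPM, in this order in all 14 libraries. The 2 bZIP factors thus stood at the top of the order and the receptors for thyroid hormone and estrogen closed it.

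Libraries held 22898793 to 28910968 estimated counts in the transplant group and 19482580 to 28723928 in the empty scaffold group. The sample titles carry numbers of unstated meaning that fall below 100 (3 transplant, 4 empty scaffold) or at 100 or above (3 and 4), and libraries differed strongly between these ranges. They also differed in how gene level ran with transcript length. The slope of log2 CPM (the count scaled to a common library size, with TMM factors) per doubling of length was 0.19 to 0.25 in the 4 empty scaffold libraries numbered 100 or above. It was -0.29 to 0.02 in the transplant libraries of that range, lowest in transplant 1, and -0.16 to 0.01 in all 7 libraries numbered below 100. The members run from 1772 to 6189 bases (mean over transcripts weighted by estimated count), and their values are therefore given also after smooth trends with length and GC content were removed from each library. The 12 hepatocyte markers summed to 121253 to 178845 CPM in transplant and 101982 to 181159 CPM in empty scaffold libraries, and none passed the test. Kupffer cell markers summed to 276 to 373 CPM against 352 to 720 CPM, with 5 of 14 called lower. Of 12 stellate cell markers 3 were called lower, and of 12 endothelial markers 2, against 4.23% of all tested genes. With the trends removed, 6 Kupffer cell markers were called lower, and 0 stellate cell and 0 endothelial markers. Whether these other cells contribute to the values below was not tested. In bulk tissue, fewer cells of a type and less RNA per cell cannot be told apart.

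No member passed the test of transplant against empty scaffold: 0 of 8 were called higher or lower by edgeR's quasi-likelihood test at a Benjamini-Hochberg adjusted p under 0.05, while 7.54% of all tested genes were (3.31% higher and 4.23% lower). At an unadjusted p under 0.05, 2 of 8 members passed, Esr1 and Nr1h3, against 30.0% of all genes; DESeq2, run as an alternative, called these 2 members and 15% of all genes. Each member's groups overlapped, so that 0 of 8 were apart, against 1.27% of all genes. The median log2 fold change was -0.05 over the members and -0.02 over all tested genes, and the median absolute change was 0.18 and 0.22.

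**Figure D1:**
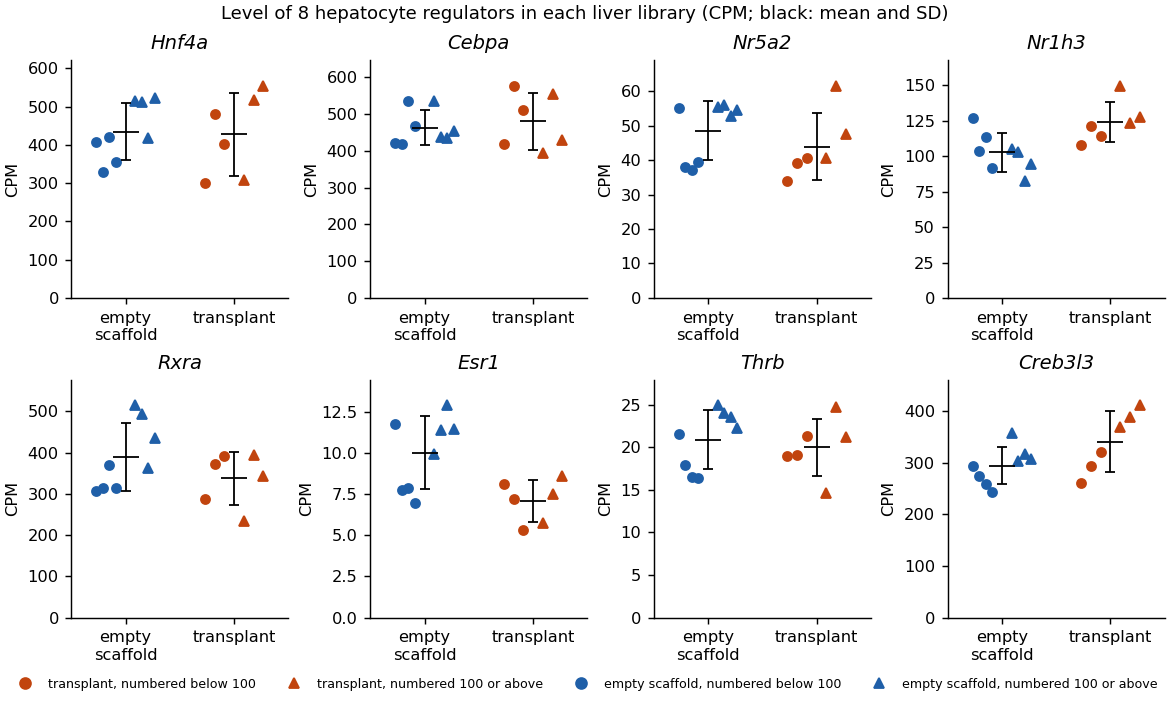
Level of each gene in CPM (y axis, from 0) in every library of the empty scaffold group (blue, n = 8) and the transplant group (red, n = 6). Circles are libraries numbered below 100 and triangles those numbered 100 or above. Black bars give mean and SD. The groups overlap for all 8 genes, and Esr1 and Nr1h3 lie farthest apart.

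Hnf4a, the central hepatocyte nuclear receptor, had 300.1 CPM in the lowest, 442 in the median and 555 in the highest transplant library, and 329, 420 and 522 CPM in the empty scaffold group. The transplant libraries held both extremes, with 2 below and 1 above every empty scaffold library. Its log2 fold change (transplant minus empty scaffold throughout) was -0.02 ± 0.16 (SE), 95% confidence interval -0.35 to 0.30, adjusted p = 0.927 (edgeR). Cebpa ran from 393 through a median of 470 to 578 CPM in transplant and from 419 through 445 to 537 CPM in empty scaffold libraries. The transplant spread again enclosed the control spread, with a log2 fold change of 0.05 ± 0.11 (-0.18 to 0.29, adjusted p = 0.759, edgeR). With the trends removed Hnf4a had 0.20 (-0.05 to 0.45) and Cebpa 0.17 (-0.02 to 0.35), and neither was called by edgeR.

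Nr5a2 had a lowest, median and highest value of 34.0, 40.5 and 61.6 CPM in transplant and 37.2, 53.5 and 55.9 CPM in empty scaffold libraries. A single transplant library lay above and another below every control, and the log2 fold change was -0.15 ± 0.14 (-0.44 to 0.15, adjusted p = 0.496, edgeR). The control values fell into a lower and an upper cluster, which the title numbers separated except for 1 library (described with the ranges).

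Nr1h3, the oxysterol receptor LXRα, had 108, 122 and 150 CPM (lowest, median, highest) in transplant and 82.5, 104 and 127 CPM in empty scaffold libraries. Of the 8 control libraries, 6 lay below every transplant library, and 2 transplant libraries lay above every control. The log2 fold change was 0.27 ± 0.10 with an interval of 0.06 to 0.49, and the adjusted p was 0.0932 (edgeR), so the higher level did not pass the test. Without empty scaffold 5, the control library with the highest Nr1h3 level, it passed at an adjusted p of 0.0441 (edgeR). Fits without 1 library called 138 to 1908 genes in all, against 990 with every library. DESeq2 gave Nr1h3 a log2 fold change of 0.29 with an adjusted p of 0.0487. Nr1h3 is the shortest member, and after trend removal the value was 0.22 (adjusted p = 0.204, edgeR).

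Rxra had 235, 358 and 394 CPM in transplant and 308, 367 and 515 CPM in empty scaffold libraries. A set of 3 controls, all numbered 100 or above, lay above every transplant library. Its log2 fold change was -0.21 ± 0.15 (-0.52 to 0.11, adjusted p = 0.363, edgeR). After removal of the length and GC trends together it was 0.08 (adjusted p = 0.712, edgeR), of the opposite sign, while an offset for effective length alone gave -0.24 (adjusted p = 0.404, edgeR).

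Esr1, the estrogen receptor, had the largest difference of the 8, at 5.33, 7.36 and 8.62 CPM in transplant and 6.97, 10.7 and 12.9 CPM in empty scaffold libraries. Of the 8 controls, 5 lay above every transplant library, and 2 transplant libraries lay below every control. The log2 fold change was -0.50 ± 0.16, an interval of -0.83 to -0.17, with an adjusted p of 0.0554 (edgeR). It stood at the border of the test: 0.0270 by DESeq2, 0.0489 with upper-quartile scaling (5.33% of all genes called lower), and 0.0271 with the number range as a covariate, where 9.08% of all genes were called lower. Leaving out empty scaffold 6 or 7 gave 0.0405 and 0.0338, and the other 12 libraries gave adjusted p-values up to 0.135 (edgeR). Without empty scaffold 7 the genes called in all rose too, to 1908 from 990. Esr1 is the longest member, and after trend removal its log2 fold change was -0.29 (adjusted p = 0.158, edgeR).

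Thrb had 14.7, 20.2 and 24.7 CPM in transplant and 16.4, 21.9 and 24.9 CPM in empty scaffold libraries. The ranges nearly coincided, and the log2 fold change was -0.07 ± 0.13 (-0.33 to 0.20, adjusted p = 0.751, edgeR).

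Creb3l3, the endoplasmic reticulum factor, had 260, 345 and 411 CPM in transplant and 244, 298 and 357 CPM in empty scaffold libraries. The 3 transplant libraries numbered 100 or above lay above every control, and 2 controls lay below every transplant library. Its log2 fold change was 0.21 ± 0.12 (-0.03 to 0.45, adjusted p = 0.230, edgeR).

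With the trends removed the median over the members was 0.14, against 0.00 over all genes. The signs of Hnf4a (0.20), Rxra (0.08) and Thrb (0.11) turned from lower to higher. None of the 8 was called by edgeR after trend removal, against 3.05% of all genes. Across the 14 libraries the correlation of a member's log2 CPM with the length slope was 0.78 for Rxra, 0.76 for Esr1 and Thrb, 0.72 for Nr5a2, 0.63 for Hnf4a and -0.72 for Nr1h3, but 0.11 for Cebpa and 0.10 for Creb3l3. These are descriptions over libraries that share the group and range structure. The members that run with the slope are the long ones, and Nr1h3, which runs against it, is the shortest.

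**Figure D2:**
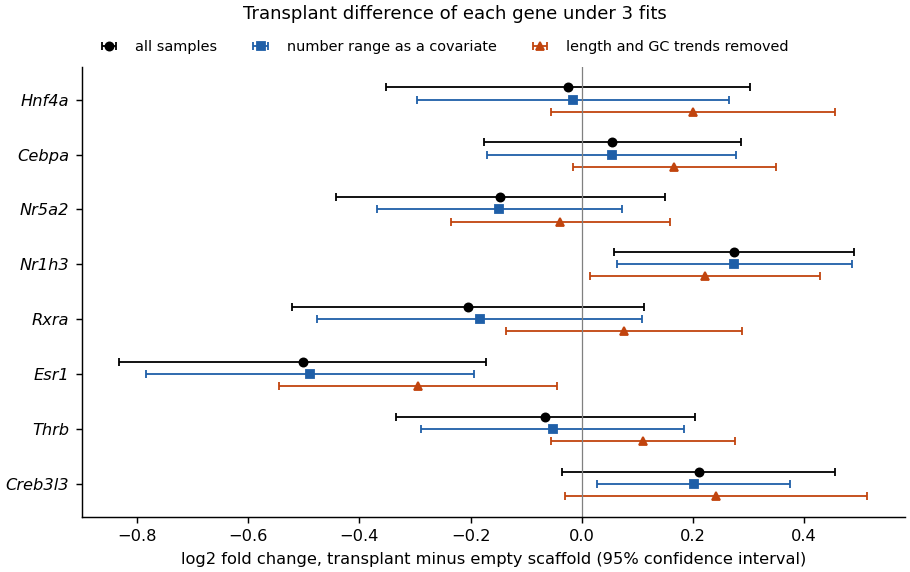
Log2 fold change of each gene, transplant minus empty scaffold (x axis), with 95% confidence intervals, for all samples (black circles), with the number range as a covariate (blue squares) and with length and GC trends removed (red triangles). Hnf4a, Rxra and Thrb change sign when the trends are removed, while Nr1h3 and Esr1 keep theirs, Esr1 at -0.50 and -0.29.

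The transplant difference was then read within each range of title numbers. In both ranges the numbers of the groups are apart, so group and number cannot be told apart inside a range either. Among libraries numbered 100 or above (3 transplant, 4 empty scaffold), 2 members were called, and 26% of all genes were (14.5% higher and 11.5% lower). Nr1h3 rose there from 82.5 to 105 CPM in the controls to 123 to 150 CPM with the transplant, or by 0.47 on the log2 scale (adjusted p = 0.0240, edgeR). On the deposited TPM scale its transplant libraries were not higher there, at 58.9 to 74.9 TPM against 66.9 to 76.2 TPM in the controls. Esr1 fell from 9.97 to 12.9 CPM to 5.76 to 8.62 CPM, with a log2 value of -0.65 (adjusted p = 0.0186, edgeR). Neither gene's groups overlapped in this range, and the Creb3l3 groups did not either, at 303 to 357 CPM against 369 to 411 CPM. Such separation was common there, with 21.1% of all genes wholly higher and 17.9% wholly lower in transplant. After removal of the trends Nr1h3 was still called (0.37, adjusted p = 0.0390, edgeR; 4.76% of all genes were called higher) and Esr1 was not (-0.34, adjusted p = 0.0958, edgeR; 2.36% called lower).

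Below 100 (3 transplant, 4 empty scaffold), no member was called by edgeR, and 0.0231% of all genes were. No member's groups were apart in this range, where 4.04% of all genes were wholly higher and 4.83% wholly lower in transplant. Nr1h3 had 108 to 122 CPM with the transplant and 91.5 to 127 CPM without it (log2 fold change 0.08), and Esr1 had 5.33 to 8.13 CPM and 6.97 to 11.7 CPM (-0.32). Rxra differed by 0.11 in this range and by -0.48 in the other. The edgeR test of the difference between the ranges called 0% of the 13131 genes, 2275 of them having an unadjusted p under 0.05. For Nr1h3 this interaction was 0.40 (adjusted p = 0.265), for Rxra -0.58 (adjusted p = 0.235) and for Esr1 -0.33 (adjusted p = 0.552).

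Of the 8 members, 2 differed between the ranges themselves, in a fit that also held the group. The range term called 23.4% of all genes, 12.5% higher at 100 or above. The count of members is thus near the share of all genes called in either direction. Creb3l3 rose by 0.33 ± 0.08 on the log2 scale (adjusted p = 0.0106, edgeR) from below 100 to 100 or above. In the controls it went from 244 to 294 CPM to 303 to 357 CPM, and with the transplant from 260 to 321 CPM to 369 to 411 CPM. Within both groups every library numbered 100 or above thus exceeded every library below 100, a pattern that 2.67% of all genes shared. With the length and GC trends removed the Creb3l3 difference was 0.42 (adjusted p = 0.00555, edgeR), against 6.7% of genes called higher.

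Nr5a2 was higher by 0.38 ± 0.10 at 100 or above (adjusted p = 0.0164, edgeR). Its control libraries went from 37.2 to 55.1 CPM to 52.6 to 55.9 CPM, where empty scaffold 5 was the single high library below 100, and its transplant libraries went from 34.0 to 40.5 CPM to 40.6 to 61.6 CPM. With the trends removed the difference was 0.17 (adjusted p = 0.185, edgeR), and it passed again without empty scaffold 5 (adjusted p = 0.0231, edgeR). Hnf4a differed by 0.31 without passing (adjusted p = 0.0929, edgeR), Thrb by 0.23 (adjusted p = 0.133, edgeR), Rxra by 0.22 (adjusted p = 0.257, edgeR) and Nr1h3 by -0.01. Esr1 had 0.27 (adjusted p = 0.154, edgeR) and Cebpa -0.05 (adjusted p = 0.771, edgeR). The count of members depended on transplant 1: without this library 5 members were called, with 4618 genes in all against 3075. Hnf4a (0.39, adjusted p = 0.00851, edgeR), Thrb (0.31, adjusted p = 0.00615) and Rxra (0.31, adjusted p = 0.0391) then joined Nr5a2 and Creb3l3. With the trends removed as well, Creb3l3 alone was called without transplant 1, and without empty scaffold 5 Nr1h3 (0.24, adjusted p = 0.0182, edgeR) was called next to Nr5a2 and Creb3l3. The fit without empty scaffold 5 then called 3040 genes in all, against 1662 with every library and the trends removed.

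**Figure D3:**
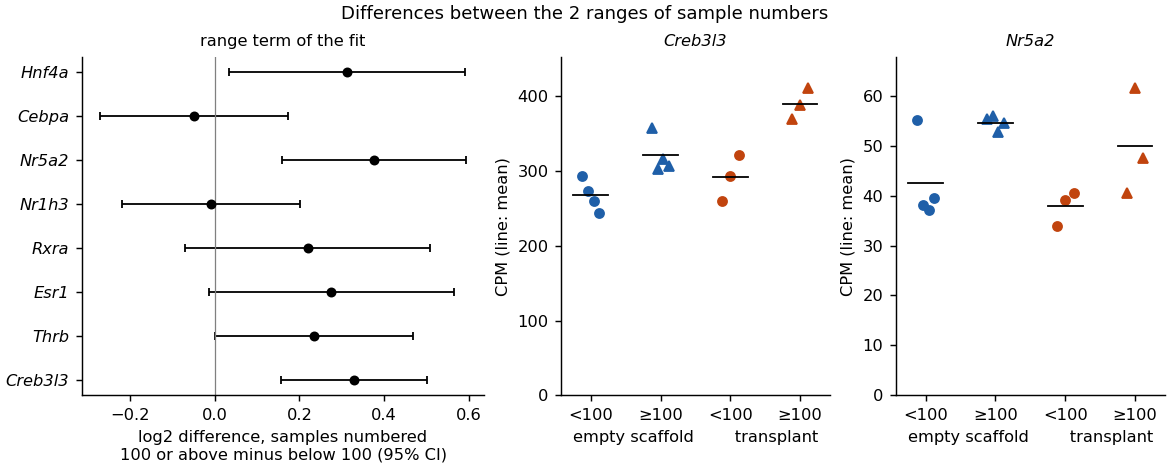
Left, log2 difference between libraries numbered 100 or above and below 100 for each gene, with 95% confidence intervals, from the fit that also holds the group. Middle and right, CPM of Creb3l3 and Nr5a2 in each library by group and range (lines are means). Creb3l3 is higher at 100 or above without overlap in either group.

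Transcripts of each gene were read next. Nearly all Hnf4a counts lay on Hnf4a-202 and Hnf4a-201, which both begin at the liver start P1. Hnf4a-205, the transcript at the upstream start P2, averaged 0.234 counts. Between Hnf4a-202 and Hnf4a-201 the estimate rests on very little sequence, since Hnf4a-202 holds 6 words of 31 bases that no other transcript has and Hnf4a-201 holds 0. Thrb counts lay mostly on Thrb-202, which begins at the downstream start and has 2200 words of its own, 1531 of them in its downstream part. Counts on Thrb-202 therefore need not come from its start. Cebpa-201 led for Cebpa, Nr5a2-201 for Nr5a2, and Creb3l3-201, Rxra-201 and Esr1-204 held at least 89.7% of their gene's counts in each library. Nr1h3 was divided between Nr1h3-202 (49.3% to 54.6%) and Nr1h3-201 (36.9% to 46.3%), whose annotated starts lie close together.

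The share of the leading transcript was tested in 9954 genes whose other transcripts held at least 1% of the counts. None (0%) passed the comparison of groups (limma on the logit share), and 444 had an unadjusted p under 0.05. For the 7 members in this test, which leaves out Rxra, the adjusted p was 0.961 to 0.998. Between the number ranges the shares moved, in 21% of the 9954 genes and in 4 of the 7 members. Hnf4a-202 held 96.8% to 99.99% of Hnf4a below 100 and 59.4% to 99.98% at 100 or above (adjusted p = 0.00986, limma), and transplant 1 alone of the latter stood as high as the former. Cebpa-201 rose from 55.7% to 82.2% to 75.2% to 85.4% (adjusted p = 0.00886, limma). Its counterpart Cebpa-202 holds only 40 words of its own, against 505 for Cebpa-201. Thrb-202 fell from a median of 97.9% to one of 74.1% (adjusted p = 0.0132, limma), and Nr5a2-201 from 97.1% to 88.5% (adjusted p = 0.0104, limma). Thrb-201 and Thrb-203 hold 27 and 0 words of their own, and Nr5a2-202 holds 514. Empty scaffold 5, numbered below 100, stood apart from the other libraries of its range, at 82.2% for Cebpa-201 (others up to 67.5%), 81.9% for Thrb-202 (others from 96.2%) and 91.4% for Nr5a2-201 (others from 96.6%). The 4 members stayed called with each 1 of the 14 libraries left out in turn, while the genes called numbered 1385 (without transplant 3) to 2602 (without empty scaffold 5), against 2086. Creb3l3 was called too without transplant 4 or 5, and both Esr1 and Creb3l3 without empty scaffold 5. At 100 or above Nr1h3-202 held 49.3% to 51.96% with the transplant and 52.9% to 54.5% in the controls, a difference that was not tested within the range. Nr1h3-202 and Nr1h3-201 hold only 61 and 26 words of their own. How many of the 9954 genes were apart in this way was not counted, so the separation is not a result about Nr1h3. The minor Nr5a2-202 went from a median of 2.50% to 10.9%. Length slopes differed between the same libraries, and their part in these shares was not tested.

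**Figure D4:**
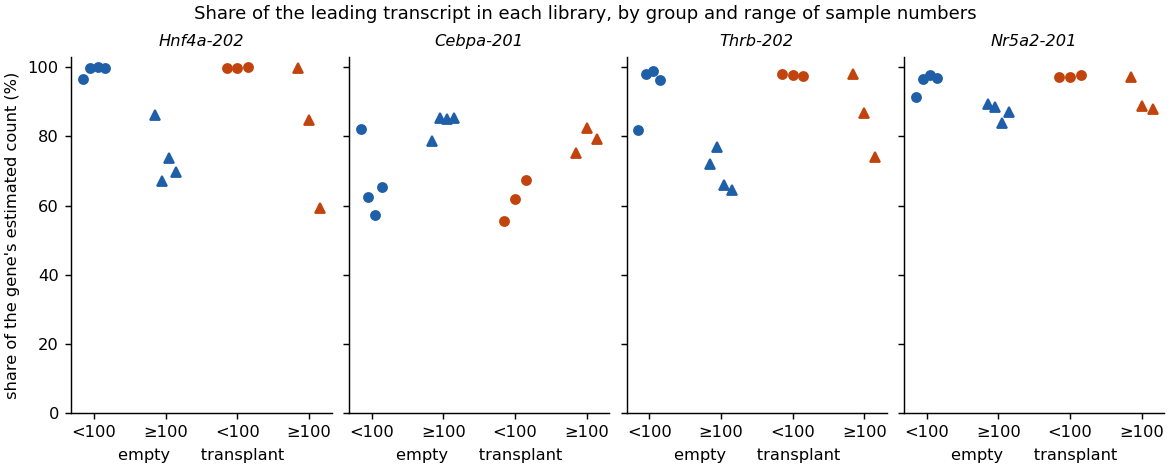
Share of the gene's estimated count held by its leading transcript (y axis, percent, from 0) in each library, by group and range of title numbers. Circles are below 100 and triangles 100 or above, blue is empty scaffold and red transplant. Most libraries part by range, with transplant 1 of the upper range near the lower range for Hnf4a, Thrb and Nr5a2, and empty scaffold 5 of the lower range near or toward the upper range for Cebpa, Thrb and Nr5a2.

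Genes of the same families, and known targets, were read from the same fit. It called 3.31% of all tested genes higher and 4.23% lower. Among 13 tested relatives of the members, none was called higher and 2 lower, both CREB3 family factors: Creb3l1 (log2 fold change -1.11, adjusted p = 0.0333, edgeR) and Creb3l2 (-0.40, adjusted p = 0.0492), the second of which had -0.12 and 0.499 with the trends removed. The list's median was 0.03. Other isotypes did not pass: Nr1h2 (LXRβ) had -0.13, Rxrb 0.09, Thra -0.28, Cebpb 0.34 and the orphan receptor Esrra 0.48 (adjusted p = 0.0503, edgeR). Esr2, Hnf4g, Nr5a1 and Creb3l4 were too low to be tested, with 3, 38, 4 and 53 counts over all libraries.

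Of 18 other hepatocyte transcription factors 2 rose, against 3.31% of all genes, and none fell. Onecut1 (HNF6) rose by 1.34 on the log2 scale (adjusted p = 0.0487, edgeR) and Foxa3 by 0.50 (adjusted p = 0.0497, edgeR). The list median was -0.11, and 0.06 with the trends removed. Foxa2 had 0.45 and was not called (adjusted p = 0.0612, edgeR). Of 25 other nuclear receptors 3 fell, against 4.23% of all genes, and none rose, with a list median of -0.17. Pparg fell by 0.46 (adjusted p = 0.0240, edgeR), the clock repressor Nr1d1 by 0.58 (adjusted p = 0.0299) and the retinoid receptor Rarb by 0.91 (adjusted p = 0.0439). The bile acid receptor Nr1h4 had 0.12, Ppara -0.53 (adjusted p = 0.289) and the corepressor Nr0b2 (SHP) -0.27. None of 18 coregulators was called by edgeR, and their median of -0.30 became -0.07 with the trends removed.

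Target lists were drawn from general knowledge and share some genes. Beside the counts below, the same fit called 3.31% of all tested genes higher and 4.23% lower. Of 14 LXR targets 4 fell and none rose, with a median of -0.43 where the receptor Nr1h3 itself had 0.27 and was not called (adjusted p = 0.0932, edgeR). On the deposited TPM scale the mean of Nr1h3 was lower in transplant, as given below. The target median was -0.16 below 100 and -0.73 at 100 or above, and -0.31 over all samples with the trends removed. The desaturases Scd1 (-0.97, adjusted p = 0.0299, edgeR) and Scd2 (-0.74, adjusted p = 0.0402), the carboxylase Acaca (-0.74, adjusted p = 0.0298) and the sterol exporter Abcg1 (-0.66, adjusted p = 0.0427) were the 4, and none of them was called with the trends removed, at -0.81, -0.48, -0.46 and -0.38. None of 16 HNF4A targets was called (median 0.26). Of 11 C/EBPα targets 1 rose, the urea cycle enzyme Arg1 by 0.45 (adjusted p = 0.0414, edgeR; median 0.23). Of 8 NR5A2 targets 2 rose, the bile acid carrier Slc10a1 by 0.42 (adjusted p = 0.0411, edgeR) and the kinase Plk3 by 0.94 (adjusted p = 0.0414), with a median of 0.29. Of 11 thyroid hormone receptor targets 1 rose, the deiodinase Dio1 by 0.50 (adjusted p = 0.0302, edgeR; median -0.23). None of 12 CREB3L3 targets (median 0.17) or 4 tested ESR1 targets (median 0.54) was called. With the trends removed the median was -0.02 for the CREB3L3 targets, which had -0.07 below 100 and 0.38 at 100 or above, and 0.01 for the thyroid hormone receptor targets. After trend removal Creb3l1, Onecut1, Pparg and Nr1d1 were still called. The adjusted p (edgeR) was then 0.0961 for Foxa3, 0.0641 for Rarb, 0.0988 for Arg1, 0.219 for Slc10a1 and 0.0639 for Plk3. Dio1 (0.37) then missed the threshold narrowly. The cytokine receptor Lifr, an ESR1 target at 0.59 and 0.0510 before, then rose by 0.78 (adjusted p = 0.0237, edgeR).

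**Figure D5:**
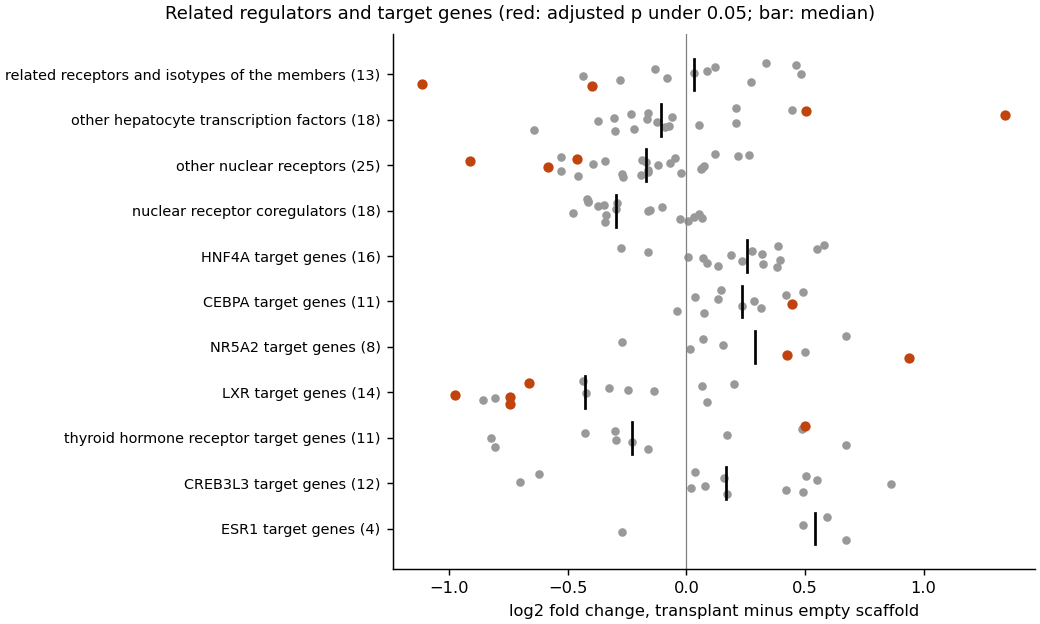
Log2 fold change, transplant minus empty scaffold (x axis), of each tested gene in 11 lists of related regulators and targets, with the number tested in brackets. Red points passed an adjusted p under 0.05 and black bars are list medians. The LXR targets hold 4 called genes, all lower.

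By Pearson correlation of log2 CPM over the 14 libraries, the genes most like each member were often long ones for the long members. Those nearest Hnf4a were Ahcyl1 (r = 0.94), Ptprk and Reep3 (both 0.93). Rxra was followed most closely by Zhx3, Aco1 and Slc22a23 (all 0.96), Esr1 by Plxna2 (0.94), Vwa5a (0.92) and Llgl1 (0.91), and Nr1h3 by Il11ra1 and Emg1 (0.96 each). After the trends were removed the nearest gene of Hnf4a was Lcat (0.94), an enzyme of cholesterol esterification in plasma, and that of Creb3l3 was Rxrb (0.95). Plxna2 (0.85) and Sox6, the latter for Thrb (0.94 before and 0.82 after), stayed among the nearest 3. Between members, Nr1h3 and Creb3l3 had r = 0.47 before and 0.78 after trend removal, and Nr1h3 and Rxra -0.41 and 0.35. These libraries share depth, range and length effects, so the values are descriptions.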

How the data were processed

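RNA sequencing of mouse liver (14 libraries) was re-analysed. The submitters' processing notes name fastp 0.20, kallisto 0.46.1, DESeq2 1.38 and GRCm39, without roles. The strand setting is not stated in the sources at hand. The authors deposited, per the file headers, estimated counts, effective lengths and TPM values per transcript. Identifiers were matched to GENCODE M21 (GRCm38), which placed 93.7% of transcripts and at least 99.4% of counts, so no coordinates of the authors' build are given. Estimated counts were summed per gene, rounded, filtered with filterByExpr, TMM-scaled and tested (two-sided) with edgeR 4.0.16 in R 4.3.3, Benjamini-Hochberg adjusted over 13131 genes. Alternatives were DESeq2 1.42.0, other scalings and filters, an effective length offset, coding transcripts only, the number range of the titles, and splines of 4 degrees of freedom on length and GC content. Transcript shares were tested with limma 3.58.1 (0.5 counts added). The calling step was tested on simulated data with the same variability for every gene. These data held no difference between number ranges and no trend with length or GC content, so they do not show how the calls behave under those. Members and lists were chosen with earlier results of these data known. Named genes are the members, fixed relatives, up to 4 called genes per list by adjusted p, and the 3 most correlated genes per member; 2 of these are not reported here. Cebpa shares 51 exon bases with Gm45091 on the opposite strand (mean count 38.2) and Nr1h3 shares 34 with Gm13783 on the same strand (0.357), so reads there are uncertain.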

Additional observations from a re-analysis of the deposited data

How the results depend on the processing

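No paired analysis was possible because the labels give the groups no shared replicate numbers. The 990 genes called in all became 1965 with DESeq2, 315 with an effective length offset, 558 with coding transcripts only, 401 with length and GC trends removed, 2578 with the number range as a covariate, 3 below 100, 1 there with trends removed, and 3487 at 100 or above. Without 1 library each the count was 138 (without transplant 1) to 1908 (without empty scaffold 7), and 2 to 625 with trends removed. Members called, 0 in all, were 1 with upper-quartile scaling, 2 with DESeq2, 1 with the covariate, 2 at 100 or above, 1 there with trends removed, and 0 to 1 without 1 library.

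Signs turned for uncalled members. Hnf4a had 0.20 with trends removed (0.20 also with the covariate added), 0.063 below 100, and 0.15 below and 0.24 at or above 100 with trends removed. Rxra had 0.076 with trends removed (0.080 with the covariate), 0.11 below 100 and 0.21 there with trends removed. Thrb had 0.11 (0.11 with the covariate), 0.13, 0.19 and, at 100 or above with trends removed, 0.027. Cebpa had -0.022 at 100 or above, and Nr5a2 0.033 there with trends removed. Leaving out 1 library gave -0.12 to 0.27 for Hnf4a, -0.0082 to 0.20 for Cebpa, -0.27 to 0.0040 for Nr5a2, -0.26 to 0.12 for Rxra and -0.13 to 0.16 for Thrb, both fits included. Nr1h3, Esr1 and Creb3l3 kept their sign in all alternatives run, which all used the counts. On the deposited TPM scale the means of Nr1h3 and Creb3l3 were lower in transplant, as given below.

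The range term called 3075 genes, 1662 with trends removed, and 928 to 4618 without 1 library, both fits included. Creb3l3 stayed called in every one of these fits. The leading transcript share called 0 genes by group, and 0 to 1 without 1 library. Alternatives that combine trend removal with 1 range or 1 library left out were chosen after seeing the data.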

Other observations

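The deposited TPM values and the scaled counts ordered the groups differently for 3 members. Nr1h3 had a mean of 57.5 ± 13.6 TPM (SD, n = 6) in transplant and 64.7 ± 11.5 TPM (n = 8) in empty scaffold libraries, against 124 ± 14.3 and 102.6 ± 13.6 CPM. Creb3l3 had 127 ± 46.1 and 151 ± 49.1 TPM but 340.3 ± 58.6 and 294 ± 35.6 CPM. Cebpa had 137 ± 39.1 and 178.5 ± 40.5 TPM, and 481 ± 77.3 and 463 ± 48.1 CPM. All 8 members had the lower mean TPM in the transplant group, but the share of all genes that did so was not counted. The count is therefore not a result about these members. What sets the difference between the scales was not tested.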
